A study of Homo sapiens with 18 samples.

Results

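The question here was what N-acetylcysteine ethyl ester (NACET), a cell-permeable ester of the cysteine precursor N-acetylcysteine, did to the mRNA of cells that lacked full-length NRF2. The 3 NACET-treated and 3 untreated samples of NRF2 ΔC cells were compared, 6 of the 18 samples of the series, and were chosen by their labels. NRF2 ΔC cells are a single clone of ARPE-19, a human retinal pigment epithelium line that arose spontaneously in culture. They were made by lentiviral delivery of Cas9 and a gRNA directed at exon 5 of NFE2L2, the gene for NRF2, with puromycin selection, and carry alleles with stop codons at positions 503 and 505. The control cells received the same vector without a gRNA. Untreated samples carry the vehicle label Milli-Q H2O, and the treated samples received 1 mM NACET. The series' design text gives 8 h of treatment after 40 h of culture in 10% serum, whereas the samples' protocol text gives 2 h after 22 h in 1% serum, and both name the same cells and doses. Because the edited line is 1 clone, differences between the cell lines cannot be told apart from differences between this clone and the control population.

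NRF2 is a transcription factor that is held in the cytoplasm and sent for degradation by KEAP1. When cysteines of KEAP1 are modified, NRF2 escapes, pairs with a small MAF protein and binds antioxidant response elements in genes for glutathione synthesis, thioredoxin reduction, quinone reduction and iron storage. Routes that run apart from NRF2 include the integrated stress response, in which ATF4 raises genes for amino acid supply, and growth factor signalling through ERK, whose output includes its own inhibitors. The pigment epithelium of the eye is exposed to light and oxygen and relies on such thiol defences.

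The 6 libraries held 18224332 to 25951154 reads on genes (median 21755666), and 15901 to 16428 genes were detected in each. Values are given as CPM, the usual scaling of counts to a common library size, with TMM factors for composition. Replicate 1 stood apart in both groups. On the first principal component of the 6 libraries, which held 60.9% of the variance, untreated replicates 1, 2 and 3 stood at -35.6, -4.27 and 0.725, and NACET replicates 1, 2 and 3 at -8.30, 20.7 and 26.7. Every NACET library thus lay to the same side of the untreated library with its number, by a distance similar to that between replicates 1 and 2. Libraries with the same number deviated together from their group means, so each result is given from the fit of 3 against 3 samples and, where the call differs, from a paired fit with the replicate number as a block. Nothing in the labels says that replicates came from separate cultures, so p-values measure the spread between these samples. Reads outside annotated genes fell in each pair, from 17.1, 16.9 and 16.0% of reads in untreated replicates 1 to 3 to 16.4, 16.2 and 15.3% with NACET, and the part of this in the results was not tested.

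The edited gene itself was measured in every sample. NFE2L2 lies on the minus strand of chromosome 2 (GRCh37, the same build as hg19, 178083395 to 178257484), and its exon 5, the last, spans 178095036 to 178096736. Its level was 124, 127 and 128 CPM in untreated replicates 1 to 3 and 110.0, 119.5 and 102 CPM with NACET. The groups did not overlap, but the log2 fold change of -0.20 ± 0.10 (SE) missed the test (edgeR quasi-likelihood test, adjusted p = 0.341) and stayed under the fold limit in the paired fit (adjusted p = 0.0339). Untreated control cells held 125 ± 3.92 CPM (SD, n = 3), so the mRNA was present in the clone, and counts per gene do not show the edit. KEAP1 stood at 65.3, 90.9 and 81.3 CPM untreated and 70.2, 82.6 and 92.8 CPM with NACET, and the groups overlapped (adjusted p = 0.922, edgeR). Of 19 markers of retinal pigment epithelium 11 were abundant enough to test. RPE65, the visual cycle isomerase, had at most 1 count in a library, and the markers of other cell types, of which 3 of 14 were testable, gave no call. HBB and MYH7, markers of red cells and muscle, had 0 counts in all 6 libraries.

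NACET changed 188 of 13542 genes tested in NRF2 ΔC cells, 1.39% of them, where DEGs were those with an adjusted p under 0.05 whose log2 fold change reached 0.6 in either direction. More genes fell than rose, with 126 lower (0.93%) and 62 higher (0.458%). In the paired fit there were 1195 DEGs (8.82%), of which 497 were higher (3.67%) and 698 lower (5.15%), and all 188 were among them. Each of the 188 moved in 1 direction in all 3 pairs, as did 60.4% of all genes tested. That share is the background for each statement on pairs below. The median log2 fold change over all genes tested was -0.01. In 24.9% of all genes tested the 3 NACET and 3 untreated values did not overlap, which is the background for statements on overlap below. The named rises and falls were chosen among genes without overlap, so this background does not apply to them. Without replicate 2 of the untreated or the NACET group edgeR called 0 genes (2162 and 1591 had an unadjusted p under 0.05), and without replicate 3 of these groups it called 1 and 2, while the paired fit gave 1078, 1289 and 1081 DEGs without both libraries of replicate 1, 2 or 3.

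The largest rises included 3 genes of the list of ERK feedback, ERRFI1, DUSP5 and DUSP6. ERRFI1, an inhibitor of the EGF receptor that is induced by its signalling, stood at 15.4, 13.9 and 15.3 CPM in untreated replicates 1 to 3 and at 37.01, 35.1 and 37.7 CPM with NACET. The values hardly varied within a group, and the log2 fold change was 1.30 ± 0.11 (SE) (adjusted p = 0.00771, edgeR). DUSP6, a phosphatase that inactivates ERK, went from 7.12, 11.9 and 11.02 to 19.2, 23.3 and 28.3 CPM (log2 fold change 1.23 ± 0.22 (SE), adjusted p = 0.0444, edgeR). DUSP5, its nuclear relative, went from 9.02, 7.94 and 9.303 to 16.4, 23.3 and 24.3 CPM (log2 fold change 1.27 ± 0.18 (SE), adjusted p = 0.0222, edgeR). In all 3 genes every NACET library lay above every untreated one, as the choice of genes required. In both phosphatases replicate 1 was the lowest NACET library.

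ANGPTL4, a secreted inhibitor of lipoprotein lipase, rose from 12.2, 4.93 and 4.81 to 35.1, 33.04 and 28.9 CPM (log2 fold change 2.14 ± 0.35 (SE), adjusted p = 0.0318, edgeR). Untreated replicate 1 lay above the other untreated libraries, while the NACET libraries were close to each other. NAV3, a cytoskeletal guidance protein, gave the largest log2 fold change of the 11 named rises, 2.26 ± 0.42 (SE), from 1.66, 3.87 and 4.95 to 9.84, 17.8 and 23.2 CPM (adjusted p = 0.0475, edgeR). KLF2, a transcription factor of quiescent endothelium, went from 4.88, 6.77 and 4.26 to 12.4, 14.7 and 21.7 CPM (log2 fold change 1.60 ± 0.26 (SE), adjusted p = 0.0317, edgeR). The groups were apart in each of these, as the choice of genes required. The other named rises were the non-coding LOC646329 (log2 fold change 1.98), the phosphatidylinositol transfer protein PITPNC1 (1.44), LONRF3 (1.28) and the palmitoyltransferase ZDHHC14 (1.22).

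The largest falls included the abundant transcripts ALDH1A3 and NEAT1. ALDH1A3, an enzyme that makes retinoic acid, stood at 1975, 2328 and 2203 CPM in untreated replicates 1 to 3 and at 774, 709 and 646 CPM with NACET. All 3 NACET libraries lay far below, and the log2 fold change was -1.62 ± 0.13 (SE) (adjusted p = 0.00667, edgeR). NEAT1, the long non-coding RNA that builds paraspeckles in the nucleus (chromosome 11, GRCh37, 65190245 to 65213011), went from 2151, 2165 and 2315 to 867, 711 and 715 CPM (log2 fold change -1.54 ± 0.13 (SE), adjusted p = 0.00771, edgeR). FAM212B gave the lowest adjusted p of the named falls, 0.00457 (edgeR), with 84.3, 89.9 and 85.1 CPM untreated, 25.3, 20.9 and 19.7 CPM with NACET and a log2 fold change of -1.98 ± 0.13 (SE). Within each group of these 3 genes the libraries were close together. CTDSP1, a phosphatase of RNA polymerase II that helps silence neuronal genes, went from 81.95, 93.8 and 88.03 to 23.8, 29.2 and 30.6 CPM (log2 fold change -1.67 ± 0.13 (SE), adjusted p = 0.00667, edgeR). CRB2, an apical polarity protein of epithelia, went from 128, 124 and 74.98 to 42.4, 27.7 and 21.4 CPM (log2 fold change -1.84 ± 0.29 (SE), adjusted p = 0.0309, edgeR), with replicate 3 the lowest of both groups. The semaphorins SEMA3E and SEMA4A, which guide axons and vessels, gave log2 fold changes of -1.99 and -1.64. The other named falls were HCP5 (-1.61), LOC100506343 (-1.60), the vesicle protein SYTL5 (-1.58), the linker histone H1F0 (-1.57) and MAMDC4 (-1.47). Each of the 23 named rises and falls was called in 2 to 4 of the 6 fits that left out 1 library. Reads were counted without strand, so a share of any of these that comes from an overlapping antisense gene cannot be told apart.

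**Figure D1:**
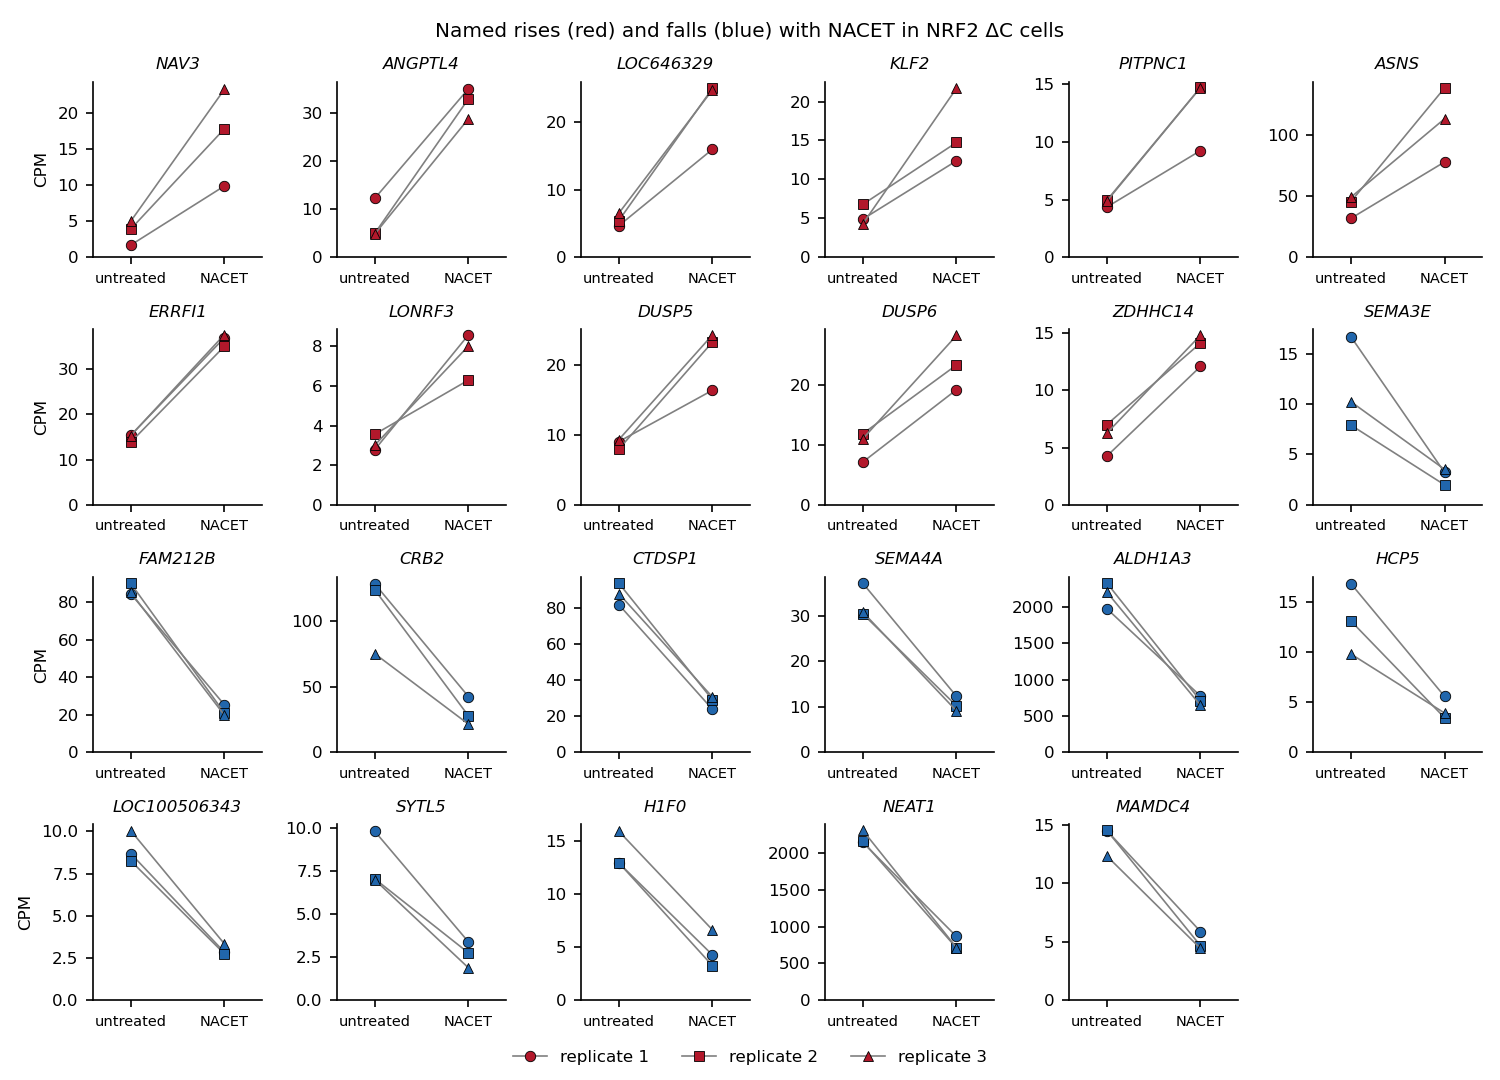
Each panel plots 1 gene in NRF2 ΔC cells, with the level in CPM on the vertical axis (from 0) and untreated and NACET-treated samples on the horizontal axis, and a line joins the 2 libraries of a replicate number (circle 1, square 2, triangle 3). The 11 genes in red rose and the 12 in blue fell in all 3 pairs. Genes were chosen for groups that do not overlap, as in ERRFI1 (15.4, 13.9 and 15.3 against 37.01, 35.1 and 37.7 CPM).

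Genes on a list of NRF2 targets had a small positive median in these cells. Like the lists below, this list was chosen with earlier results of these data known, so shares of all genes beside it only describe it. Of the 28 tested edgeR called 0 as DEGs, where 1.39% of all genes were called, so the count itself does not set the list apart. An unadjusted p under 0.05 was found for 9 of them and for 18.6% of all genes, and DESeq2 called 2, GCLM and ABCC3, and 3.12% of all genes. The list's median log2 fold change was 0.21, against -0.01 over all genes. In the paired fit 3 rose, where 3.67% of all genes did, and 1 fell, where 5.15% did. The 3 were SLC7A11, the cystine importer, GCLM, the modifier subunit of the first enzyme of glutathione synthesis, and ABCC3, an exporter of conjugates. SLC7A11 stood at 11.5, 18.6 and 14.4 CPM untreated and 21.8, 37.5 and 17.2 CPM with NACET, and the groups overlapped because NACET replicate 3 lay below untreated replicate 2 (paired log2 fold change 0.74 ± 0.12 (SE), adjusted p = 0.000206; without the block, adjusted p = 0.217, edgeR). GCLM was even, at 11.02, 10.7 and 12.1 and 17.8, 16.8 and 20.4 CPM (log2 fold change 0.70 ± 0.13 (SE), adjusted p = 0.0522, and 4.17e-05 in the paired fit, edgeR). The gene that fell in the paired fit was AKR1C3, an aldo-keto reductase, at 5.81, 2.895 and 3.47 CPM untreated and 2.88, 1.92 and 2.28 CPM with NACET (paired adjusted p = 0.00286, edgeR).

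HMOX1, NQO1 and TXNRD1 stayed under the fold limit with all 6 libraries. HMOX1, which breaks down heme, stood at 39.1, 54.5 and 45.7 CPM untreated and 42.1, 80.8 and 75.02 CPM with NACET. Replicate 1 barely differed while replicates 2 and 3 were higher, and the log2 fold change of 0.49 ± 0.24 (SE) was not called (adjusted p = 0.32, edgeR). Without NACET replicate 1 it was 0.74 and was called (adjusted p = 0.0433, edgeR), and over the 6 fits that left out 1 library it ranged from 0.33 to 0.74. NQO1, the quinone reductase, stood at 15.6, 11.4 and 15.2 and 20.00, 19.1 and 22.6 CPM (log2 fold change 0.54 ± 0.16 (SE), adjusted p = 0.126, edgeR). TXNRD1, cytosolic thioredoxin reductase, stood at 555, 611 and 648 and 676, 706 and 732 CPM (log2 fold change 0.21 ± 0.11 (SE), adjusted p = 0.357, edgeR). In NQO1 and TXNRD1 the groups did not overlap. In the paired fit the adjusted p was 0.0013 for HMOX1, 0.000469 for NQO1 and 0.0173 for TXNRD1 (edgeR), with log2 fold changes below 0.6. Without both libraries of replicate 1 the paired log2 fold changes of HMOX1 and NQO1 were 0.64 and 0.65, and both were called (adjusted p = 1.19e-06 and 4.95e-05, edgeR). The log2 fold changes were 0.22 for glutathione reductase GSR, 0.22 for thioredoxin TXN, 0.26 for the catalytic subunit GCLC, 0.20 for the membrane glutathione transferase MGST1, 0.27 for the small MAF protein MAFG and 0.22 for the autophagy receptor SQSTM1. Each of these genes was higher in all 3 pairs, below the fold limit, where 60.4% of all genes tested moved in 1 direction in all pairs. Their adjusted p ran from 0.0078 (MAFG) to 0.0329 (MGST1) in the paired fit, and from 0.216 (GCLC) to 0.634 (MGST1) without the block (edgeR). The log2 fold changes of FTL, the ferritin light chain, and EPHX1, microsomal epoxide hydrolase, were -0.05 and -0.01, and their sign changed with the scaling or the libraries used.

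The same genes were measured in control cells, on separate samples, to ask how far the response depended on the cell line. The median log2 fold change of the NRF2 targets was 1.04 in control cells. The interaction of NACET and cell line, fitted over the 12 NACET and untreated libraries of both lines, was called for 9 of 14002 genes (0.0643%). All had the lower log2 fold change in NRF2 ΔC cells, and 228 genes (1.63%) had an unadjusted p under 0.05. The largest was that of TRIM16L, at 3.805, 4.58 and 4.35 CPM untreated and 4.42, 4.82 and 4.38 CPM with NACET in the clone, with 15.7 ± 5.46 and 129 ± 10.9 CPM (SD, n = 3) in control cells (difference of log2 fold changes -2.95 ± 0.28 (SE), adjusted p = 0.003, edgeR). TRIM16L is a near-identical copy of TRIM16. Reads aligned to more than 1 place were assigned to no gene, so reads that fit both copies are missing from both levels. TXNRD1 went from 1013 ± 100.3 to 3096 ± 131 CPM (SD, n = 3) in control cells, and its difference was -1.39 ± 0.14 (SE) (adjusted p = 0.00377, edgeR). AKR1C3, TRIM16, the taurine transporter SLC6A6 and FTL were also called, with differences of -2.38, -1.88, -1.43 and -1.10 on the log2 scale (each adjusted p = 0.0464, edgeR). TRIM16L and TXNRD1 were called in all 12 fits that left out 1 library, AKR1C3, TRIM16 and SLC6A6 in 1 of the 12 each, and FTL in 0, and with RLE scaling these 4 missed the threshold. With the replicate number as a block within each line 126 genes were called (0.9%), of which 107 had the lower log2 fold change in the clone. The 107 include genes that fell further in the clone, such as NEAT1. Of the 28 NRF2 targets 24 were among the 107. HMOX1 (-1.77 ± 0.13 (SE), adjusted p = 6.36e-07), NQO1 (-1.82 ± 0.19 (SE), adjusted p = 2.56e-05) and SLC7A11 (-1.93 ± 0.16 (SE), adjusted p = 4.13e-06) missed the unpaired test and were called in that paired edgeR fit. The levels before treatment also differed. In the clone and in control cells untreated TXNRD1 averaged 605 and 1013 CPM, NQO1 14.1 and 230 CPM, TRIM16L 4.24 and 15.7 CPM, and HMOX1 46.4 and 58.0 CPM.

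**Figure D2:**
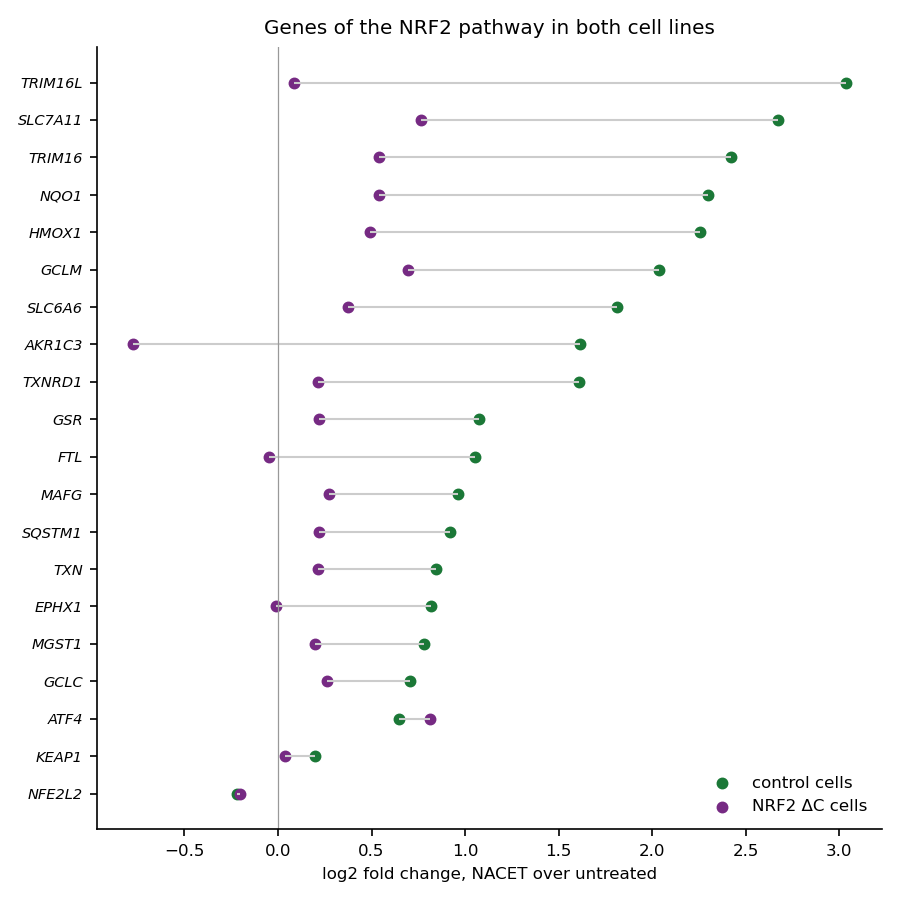
The log2 fold change of NACET over untreated (horizontal axis) is plotted for 20 genes of the NRF2 pathway in control cells (green) and NRF2 ΔC cells (purple), each from 3 treated and 3 untreated samples, with a line joining the lines' values for a gene. The purple points lie between -0.77 (AKR1C3) and 0.81 (ATF4), with TXNRD1 at 0.21 against 1.61 in control cells, and both points of ATF4 lie close together (0.81 and 0.65).

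Antioxidant response elements were looked up in promoters, taken as 250 bases before to 50 after the start from RefSeq on GRCh38.p14, which matched 10550 of the 13542 tested genes. The letters TGACNNNGC were found on either strand in 5 of 22 matched NRF2 targets (22.7%), and in 15.1% of all matched genes. TXNRD1 is shown because it carries the element and its interaction was called, and GCLM because it carries the element and rose in the paired fit. The interaction of GCLM, -1.34 ± 0.22 (SE), missed the unpaired test (adjusted p = 0.0913) and was called with the block within each line (adjusted p = 7.97e-06, edgeR). Capitals mark the element, with 40 bases on each side up to the start, at chr12:104215640-104215728 on the plus strand for TXNRD1 and at chr1:93909431-93909504 on the minus strand for GCLM, where the element reads on the reverse strand.
TXNRD1: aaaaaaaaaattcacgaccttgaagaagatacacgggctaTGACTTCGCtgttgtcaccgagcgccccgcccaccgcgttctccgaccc
GCLM: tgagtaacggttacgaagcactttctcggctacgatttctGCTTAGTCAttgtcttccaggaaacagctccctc

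Some genes of amino acid supply rose in the clone, most of these in the paired fit alone, where 3.67% of all genes rose and 5.15% fell. ATF4, the transcription factor of the integrated stress response, stood at 181, 231 and 238 CPM untreated and 314, 429 and 407 CPM with NACET, with no overlap. It missed the test at a log2 fold change of 0.81 ± 0.16 (SE) (adjusted p = 0.0522, edgeR) and was called in the paired fit (adjusted p = 1.25e-07) and without NACET replicate 1 (adjusted p = 0.0214). ASNS, asparagine synthetase (chromosome 7, GRCh37, 97480989 to 97501854), was a DEG in both, at 31.7, 45.3 and 48.9 CPM untreated and 77.9, 138 and 113 CPM with NACET (log2 fold change 1.38 ± 0.23 (SE), adjusted p = 0.0348, edgeR). Untreated replicate 1 was the lowest library and NACET replicate 2 the highest. Of 20 tested genes of serine, one-carbon and amino acid synthesis, 6 rose in the paired fit (against 3.67% of all genes) and none fell, with a median log2 fold change of 0.36 (in pairs 1 to 3 0.31, 0.31 and 0.42). They were ASNS, the serine enzyme PSAT1 (0.99), the mitochondrial folate enzyme MTHFD2 (0.93), PCK2 (0.79) and both enzymes of transsulfuration, CBS (0.75) and CTH (1.57). CTH, which releases cysteine, was scarce, at 2.098, 3.404 and 2.499 CPM untreated and 6.13, 12.00 and 6.02 CPM with NACET (paired adjusted p = 1.02e-06, edgeR).

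Of 16 tested amino acid transporters 5 rose in the paired fit (against 3.67% of all genes) and none fell, SLC7A11, its partner SLC3A2 (0.71), SLC1A4 (0.87), SLC1A5 (0.75) and SLC6A9 (1.05). Of 20 cytosolic aminoacyl-tRNA synthetases 4 rose in that fit (against 3.67% of all genes), GARS (0.85), YARS (0.71), MARS (0.61) and WARS (0.61). The list of the integrated stress response itself was mixed, with 6 rises and 3 falls among 19 tested in the paired fit (against 3.67 and 5.15% of all genes). TRIB3 (0.94), CHAC1 (1.26), CEBPG (0.91), NUPR1 (0.75) and the tRNA exporter XPOT (0.75) rose along with ATF4, while the mTORC1 inhibitor DDIT4 (-0.84), STC2 (-0.73) and CREBRF (-0.71) fell. XPOT and STC2 were DEGs without the block too. Of 21 tested genes of cysteine and glutathione metabolism 6 rose in the paired fit, against 3.67% of all genes. They were CTH, CBS, GCLM, SLC7A11, CHAC1 and CHAC2, the last a glutathione-degrading enzyme like CHAC1. TXNIP, the inhibitor of thioredoxin, was lower in each pair, at 73.03, 26.7 and 53.9 CPM untreated and 29.3, 12.98 and 23.6 CPM with NACET. The groups overlapped because replicate 2 was low in both, and it was called only in the paired fit (log2 fold change -1.20 ± 0.09 (SE), adjusted p = 3.51e-08, edgeR).

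The letters TGATGNAA, the element read by ATF4 with a C/EBP partner, were found on either strand in 4 of the 17 matched members of the amino acid and integrated stress response lists that rose in the paired fit (23.5%). They were also in 10 of the 42 other tested members (23.8%), and in 1.61% of all matched genes. ASNS and CHAC1 are shown as risers that carry it, at chr7:97872429-97872516 on the minus strand and at chr15:40953222-40953309 on the plus strand of GRCh38.p14, with the element in capitals (reverse strand in CHAC1). In ASNS the element starts at position -68 from the start of the gene.
ASNS: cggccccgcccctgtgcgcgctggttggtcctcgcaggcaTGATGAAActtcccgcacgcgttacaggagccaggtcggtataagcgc
CHAC1: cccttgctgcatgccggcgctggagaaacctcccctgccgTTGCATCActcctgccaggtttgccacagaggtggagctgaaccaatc

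Genes induced by ERK signalling had the highest median of the 27 gene lists, which were chosen with earlier results of these data known. The rank and the shares beside it are thus a description and not a test. Of 17 tested, 4 were DEGs, ERRFI1, DUSP5, DUSP6 and the death-associated PHLDA1 (0.88), and 10 rose in the paired fit with none falling, against 3.67% of all genes higher. The median log2 fold change was 0.88, and 0.88, 0.81 and 0.79 in pairs 1 to 3. The others were the Sprouty protein SPRY4 (1.41), the ETS factors ETV4 (1.13) and ETV5 (1.01), the AP-1 subunit FOSL1 (0.92), the cyclin CCND1 (0.62) and the cytokine IL11 (1.33). Of 21 tested immediate early genes 10 rose in the paired fit and none fell, against 3.67 and 5.15% of all genes. KLF2 was the DEG without the block. JUNB, an AP-1 subunit, stood at 9.46, 22.4 and 12.8 CPM untreated and 25.3, 47.4 and 34.3 CPM with NACET (paired adjusted p = 7.28e-08, edgeR). FOS, the founding member of the family, had 5 to 9 counts in every library and was not tested.

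Of 18 tested genes of NF-kB and cytokines 10 rose and 1 fell in the paired fit, against 3.67 and 5.15% of all genes. NFKB1, a subunit of NF-kB, was a DEG (0.63), and the inhibitors NFKBIA (0.64) and NFKBIE (0.97), RELB (0.99) and BIRC3 (1.63) rose in the paired fit. IL1RN, the antagonist of the interleukin 1 receptor, fell (-1.94, adjusted p = 0.0432, edgeR). Of 20 heat shock proteins 4 were DEGs and all 4 were higher, against 0.458% of all genes higher. HSPA1A, an inducible HSP70, stood at 38.6, 39.5 and 37.3 CPM untreated and 69.8, 66.3 and 66.99 CPM with NACET (log2 fold change 0.81 ± 0.10 (SE), adjusted p = 0.0182, edgeR). Its near-identical copy HSPA1B (0.63) was a DEG too. Reads aligned to more than 1 place were assigned to no gene, so reads that fit both copies are missing from both levels. The others were HSPB8 (0.63) and CHORDC1 (0.62). The letters GAANNTTC, half-sites of the heat shock element, were in 8 of 19 matched promoters of the list (42.1%) and in 4.65% of all matched genes. In the endoplasmic reticulum XBP1, a transcription factor of the unfolded protein response, was a DEG (0.88), and 6 of 22 tested members rose in the paired fit. Of 24 genes of ribosome biogenesis 4 rose in that fit, both beside 3.67% of all genes, with PUS7 a DEG (0.66).

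Several members of the lists of quiescence and of p53 targets fell in the paired fit. Of 21 tested genes of FOXO targets and quiescence 4 were DEGs, all lower (0.93% of all genes were), and 11 fell in the paired fit with none rising, against 5.15% of all genes lower. The median log2 fold change was -0.63, and -0.68, -0.50 and -0.61 in pairs 1 to 3. BTG2, an antiproliferative gene that is also a p53 target, stood at 55.2, 46.8 and 56.1 CPM untreated and 21.2, 21.1 and 23.9 CPM with NACET, with a log2 fold change of -1.26 ± 0.12 (SE) (adjusted p = 0.0101, edgeR). The CDK inhibitor CDKN1B (-0.77), the cyclin CCNG2 (-0.87) and TOB1 (-0.68) were the other DEGs. Of 20 tested p53 targets 9 fell and 1 rose in the paired fit, against 5.15 and 3.67% of all genes. CDKN1A, the CDK inhibitor p21, stood at 463, 288 and 284 CPM untreated and 273, 179.6 and 192 CPM with NACET, and was called only in the paired fit (adjusted p = 1.12e-06, and 0.179 without the block, edgeR). FDXR, a mitochondrial electron carrier (-0.95), was a DEG in both, as was the kinase PLK3, which rose (0.69). Of 29 tested cell cycle genes 3 rose in the paired fit (against 3.67% of all genes), CDC6 (0.72), CDT1 (0.61) and E2F1 (0.61), which act before DNA replication. MCM7 alone fell (-0.93), against 5.15% of all genes.

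Of 18 tested genes of the circadian clock 7 fell in the paired fit and none rose, against 5.15% of all genes lower, and 2 of the 7, DBP and TEF, were DEGs without the block. DBP, a PAR bZIP factor driven by the clock, stood at 13.02, 11.7 and 12.5 CPM untreated and 4.88, 4.27 and 5.24 CPM with NACET (log2 fold change -1.38 ± 0.15 (SE), adjusted p = 0.0135, edgeR). Its relatives TEF (-1.10) and HLF (-1.41) were lower too, as were PER3 (-1.04), NR1D1 (-0.71), CRY2 (-0.71) and C1orf51 (-1.02), while the core activators CLOCK (0.16) and ARNTL (-0.03) were not called. Of 24 tested hypoxia genes 8 fell in the paired fit (against 5.15% of all genes), and NDRG1 went from 348, 214 and 245 to 124, 117 and 135 CPM (log2 fold change -1.11 ± 0.18 (SE), adjusted p = 0.0324, edgeR). Replicate 1 was the highest untreated library for it. SAP30 (-0.77) and the host gene MIR210HG (-0.92) were DEGs as well. Of 18 tested interferon genes 5 fell and 1 rose in the paired fit (against 5.15 and 3.67%), with STAT2 (-0.91), IRF9 (-0.74) and GBP2 (-0.85) lower in both fits. Of 20 genes responsive to YAP and TGF-beta 6 fell and 2 rose in the paired fit (against the same shares), with CCND1 among those that rose and ARHGEF17 (-0.83) a DEG that fell. Of 20 genes of cholesterol synthesis 1, HMGCS1, fell in that fit (-0.89), a share like the 5.15% of all genes.

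Markers of the pigment epithelium were measured beside these results. Of the 11 tested, 2 fell in the paired fit and none rose, against 5.15 and 3.67% of all genes. The other 9 were not called, and 3 of the 11 had a log2 fold change above 0. TSPAN10, a tetraspanin of pigment cells, fell from 156, 176 and 145 to 88.1, 75.00 and 73.8 CPM (log2 fold change -1.01 ± 0.13 (SE), adjusted p = 0.0192, edgeR). MITF, the transcription factor of pigment cells, went from 152, 132 and 114 to 85.1, 79.00 and 64.8 CPM and was called only in the paired fit (adjusted p = 2.07e-07, and 0.0504 without the block, edgeR). Both genes were lower in all 3 pairs. The summed level of the whole list ranged from 1608 to 1774 CPM untreated and from 1371 to 1536 CPM with NACET. In these bulk samples fewer cells of a type and less RNA per cell cannot be told apart. Of 5 tested genes on the metallothionein list 1 rose and 1 fell in the paired fit, against 3.67 and 5.15% of all genes. The one that fell was MT1F (-1.07). MT2A, which binds zinc and copper, rose from 237, 410.1 and 489 to 443, 742 and 962 CPM. The groups overlapped although each pair rose (paired log2 fold change 0.90 ± 0.07 (SE), adjusted p = 4.37e-08, edgeR). Of the 14 tested BCL2 family members BMF (-0.85) and BBC3 (-0.69), which promote apoptosis, fell in the paired fit and PMAIP1 (0.84) rose, against 5.15 and 3.67% of all genes.

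The DEGs of the clone had the same sign in control cells in all but 1 case. Of the 188 DEGs, 187 did so, and the share of all genes with the same sign in both lines was not counted. In the interaction edgeR and DESeq2 each called 0 of the 188 (over all genes 0.0643 and 0.148%). An unadjusted p under 0.05 was found for 34 of them (1.63% of all genes), and 16 were called with the block within each line (0.9% of all genes). The exception was AKAP12, a scaffold of protein kinases, at 76.2, 70.9 and 79.4 CPM untreated and 109, 120.3 and 123 CPM with NACET, with a log2 fold change of 0.63 in the clone and -0.12 in control cells. The median log2 fold change of the DEGs that rose was 0.93 in the clone and 0.65 in control cells, and that of the DEGs that fell was -0.97 and -0.75. These genes were chosen in the clone, which favours the larger value there. Over all 13542 genes the log2 fold changes of the lines gave a Pearson r of 0.783, as a description of genes that are not independent replicates. List medians in the clone and in control cells were 0.88 and 0.66 for ERK feedback, 0.43 and 0.38 for amino acid transporters, 0.34 and 0.27 for heat shock proteins, and -0.63 and -0.58 for FOXO targets and quiescence. They were 0.27 and 0.14 for chaperones of the endoplasmic reticulum and the unfolded protein response, and -0.36 and -0.11 for hypoxia genes. Of the 24 hypoxia genes 4 were called in the interaction with the block within each line, against 0.9% of all genes.

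**Figure D3:**
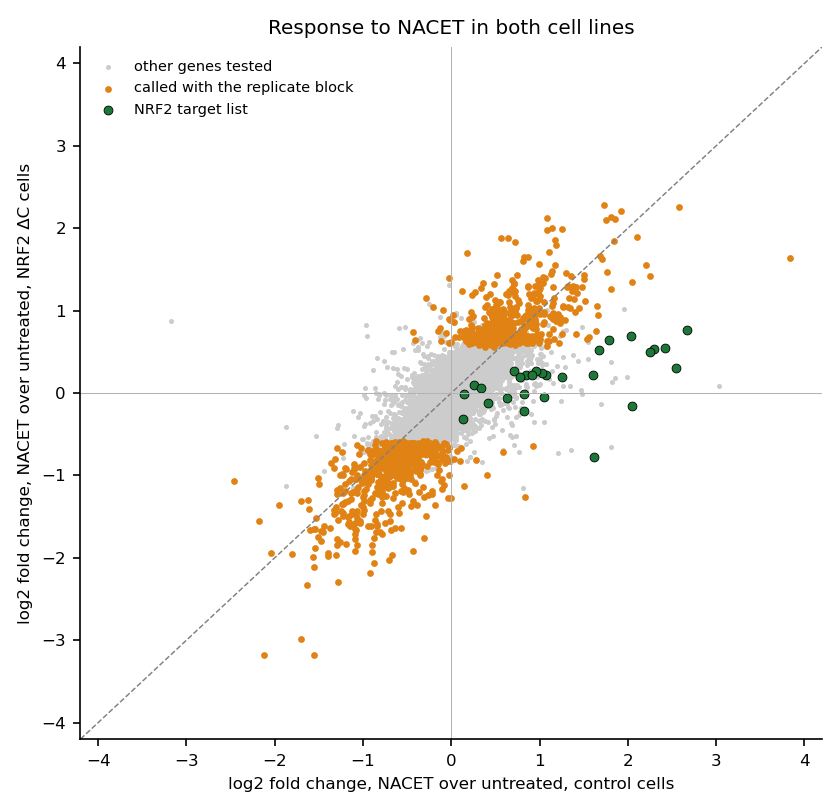
Each of the 13542 genes is a point at its log2 fold change of NACET over untreated in control cells (horizontal axis) and in NRF2 ΔC cells (vertical axis), and the dashed line marks equal responses. Genes called in the clone's paired fit (orange) spread along the diagonal, and the 28 NRF2 targets (green) have medians of 1.04 on the horizontal and 0.21 on the vertical axis, where they run from -0.77 to 0.77.

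Some genes responded more in the clone. They were called with the block within each line and not in the unpaired fit, and 19 genes in all had the higher log2 fold change in NRF2 ΔC cells. IVL, involucrin of the cornified envelope, went from 2.05, 5.09 and 5.23 to 8.54, 14.4 and 17.7 CPM in the clone, whereas control cells held 69.1 ± 8.97 CPM untreated and 78.3 ± 5.03 CPM with NACET (SD, n = 3). Its difference of log2 fold changes was 1.53 ± 0.14 (SE) (adjusted p = 7.10e-06, edgeR), from a much lower level in the clone. AKAP12 (0.73 ± 0.10 (SE), adjusted p = 0.000882), the lipase MGLL (0.67 ± 0.10 (SE), adjusted p = 0.00172), JUNB (0.64 ± 0.13 (SE), adjusted p = 0.0195), NUPR1 (0.60 ± 0.10 (SE), adjusted p = 0.00607) and MT2A (0.56 ± 0.09 (SE), adjusted p = 0.00181) followed in the same edgeR fit. These genes, IVL and AKAP12 included, were named after their values were seen. In the other direction the fall of NEAT1 was larger in the clone, at -1.54 against -0.86 (-0.70 ± 0.11 (SE), adjusted p = 0.00377, edgeR with the block within each line), and so was that of MITF, at -0.80 against -0.39 (adjusted p = 0.0118).

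The same clone was also treated with 0.2 mM H2O2, and that group shares its untreated samples with the comparison above, so levels are set side by side without a test. ASNS averaged 41.96 ± 9.104 CPM untreated, 109.9 ± 30.4 CPM with NACET and 447 ± 74.9 CPM with H2O2 (SD, n = 3 each). CDKN1A averaged 345 ± 102, 215 ± 50.6 and 1588 ± 74.9 CPM in the same order, so it was below the untreated mean with NACET and above it with H2O2. HSPA1A averaged 38.4 ± 1.12, 67.7 ± 1.84 and 17.02 ± 6.09 CPM, above the untreated mean with NACET and below it with H2O2. ALDH1A3 averaged 2168 ± 179, 709 ± 64.2 and 929 ± 92.2 CPM and lay below the untreated mean with both agents. TXNRD1 averaged 605 ± 47.2, 705 ± 28.5 and 645 ± 16.9 CPM.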

How the data were processed

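The authors prepared TruSeq libraries, sequenced them as single-end reads, mapped these to hg19 with TopHat 2.1.0, assigned them to genes with HTSeq-count 0.11.2 on both strands alike, and removed genes of ribosomal RNA. The gene annotation is not given in the sources used here. The deposited values are whole-number counts for 23411 symbols per sample, and 5 summary lines, 25.8 to 27.0% of all reads in the 6 libraries, entered neither library sizes nor tests. At this depth counting error is small for abundant genes, whose precision is set by the replicates. Replicates differed by more than counting error (chi-square per degree of freedom 11.7 or more).

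Genes were kept by filterByExpr, normalized with TMM and tested across all genes with edgeR 4.0.16 (quasi-likelihood, Benjamini-Hochberg adjustment) in R 4.3.3. Replicate numbers come from the labels. Deviations from group means correlated at 0.876, 0.469 and 0.781 for replicates 1, 2 and 3 over 10930 genes, so the numbers were taken to pair the samples. Unlike numbers gave 0.303 (untreated 2, NACET 3) and 0.293 (untreated 3, NACET 2), not far below the 0.469 of replicate 2. Those that involved replicate 1 gave -0.503 to -0.774. Interactions were fitted over 12 libraries and called on the adjusted p alone, and control log2 fold changes come from that fit. CPM were scaled by TMM over 18 libraries. Differences per pair used log2(CPM + 0.5). The SE of an edgeR value was its absolute log2 fold change divided by the square root of the quasi-likelihood F statistic. Alternatives were DESeq2 1.42.0, other scaling, filters, fold limits and sets of libraries, and the block. The tests were tried on simulated data. Named genes were NFE2L2, KEAP1, 14 genes of the NRF2 pathway, the 12 largest rises and falls called in both fits at a mean of at least 5 CPM without overlap, up to 5 interactions each way, and list members called in either fit. One of these rises and 1 marker of other cell types are not reported here. The members and lists were chosen with earlier results of these data known.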

Additional observations from a re-analysis of the deposited data

Results flagged for a closer look

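The response to NACET differed between the cell lines by the interaction test in the 5 genes with the largest called difference (edgeR, 12 libraries). The response of the clone minus that of control cells, in log2 fold change, was -2.95 ± 0.28 (SE) for TRIM16L (adjusted p = 0.003), with 0.09 in the clone and 3.04 in control cells. It was -2.38 ± 0.35 (SE) for AKR1C3 (adjusted p = 0.0464), the one of the 5 with opposite signs, -0.77 in the clone and 1.61 in control cells. For TRIM16 it was -1.88 ± 0.28 (SE) (adjusted p = 0.0464), for SLC6A6 -1.43 ± 0.21 (SE) (adjusted p = 0.0464) and for TXNRD1 -1.39 ± 0.14 (SE) (adjusted p = 0.00377). DESeq2 and the fit blocked by replicate inside each line called all 5 too. TRIM16L and TXNRD1 were called in all 12 fits that left out 1 library, but AKR1C3, TRIM16 and SLC6A6 in 1 of the 12 each, and with RLE scaling the adjusted p of these 3 rose above 0.05. Reads that aligned to both TRIM16 and TRIM16L, which are near-identical copies, were assigned to neither.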

How the results depend on the processing

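The number of DEGs differed between settings. Against 188 there were 566 with DESeq2 (which also tested 18130 rather than 13542 genes), 641 in 1 fit of all 18 libraries, 1195 with the replicate block, 1078, 1289 and 1081 with the block but without both libraries of replicate 1, 2 or 3 (an alternative chosen after seeing the data), and 88 with a log2 fold limit of 1. Leaving out 1 library gave 0 to 462 DEGs, 462 of them without NACET replicate 1 and 139 without untreated replicate 1. RLE or upper-quartile scaling, other filters, no fold limit and 1 fit of the 9 libraries of the clone gave 189 to 266. The interaction, called for 9 genes, gave 28 with DESeq2, 3 with RLE, 4 with upper-quartile factors, 38 with the replicate block, 126 with the block within each line, and 2 to 8 when 1 library was left out. The 23 named genes with the largest changes kept their direction in all of these fits. Log2 fold changes near 0 changed sign. The log2 fold change of KEAP1 ranged from -0.067 to 0.15 when 1 library was left out and was -0.024 with the block without both libraries of replicate 3. The log2 fold change of FTL ranged from -0.14 to 0.035 when 1 library was left out. The log2 fold change of EPHX1 was 0.012 with upper-quartile factors, 0.0059 in 1 fit of all 18 libraries, 0.057 with the block without both libraries of replicate 2, and -0.084 to 0.030 when 1 library was left out. The interaction of NFE2L2 ranged from -0.036 to 0.074 when 1 library was left out. The cause of these shifts was not tested.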
